A study of Mus musculus with 8 samples.

Results

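The genes described here are the PGC-1 coactivators and the transcription factors that work with them in making mitochondria, measured in the striatum of R6/2 mice, a model of Huntington's disease. They are 10 genes: the coactivators Ppargc1a, Ppargc1b and Pprc1, the nuclear receptors Esrra and Esrrg, the nuclear factors Nrf1 and Gabpa, and the mitochondrial factors Tfam, Tfb1m and Tfb2m. Members were every non-control probe whose gene name on the array, or in the deposited result table, is one of these symbols. This gave 10 of the 16886 tested genes and 17 of the 55681 non-control probes: 5 genes had 1 probe each and 5 genes shared the other 12. All 17 probes were well above background on all 8 arrays, none was saturated or flagged, and all entered the test.

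RNA of the striatum was hybridised to 1-colour arrays from 4 R6/2 and 4 wild-type (WT) male mice aged 4 weeks. R6/2 mice carry a transgene with exon 1 of the human huntingtin gene, bearing a long CAG repeat and driven by the human huntingtin promoter. No strain, treatment or further allele is given in the labels for either group. The labels do not say that each replicate came from its own animal. A p-value here weighs the genotype difference only against the spread of these replicates, and that spread may be technical in part.

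PGC-1α, the product of Ppargc1a, binds no DNA itself. It docks on transcription factors such as the estrogen-related receptors and nuclear respiratory factors and recruits chromatin-modifying enzymes to genes of the respiratory chain, fatty acid oxidation and antioxidant defence. The nuclear respiratory factors NRF1 and GABP in turn switch on Tfam, Tfb1m and Tfb2m, whose products enter mitochondria. There TFAM packs mitochondrial DNA and, with TFB2M, starts its transcription, and TFB1M modifies ribosomal RNA. Low PGC-1α has been reported in Huntington's disease striatum, where mutant huntingtin is thought to interfere with the transcription of Ppargc1a by CREB and TAF4, and in the brain PGC-1α is prominent in interneurons that contain parvalbumin.

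Every value below is a log2 signal relative to the 75th percentile of its array, so 0 is the level of that percentile. A probe was called where limma's p-value, adjusted by the Benjamini-Hochberg method over 35121 tested probes, was under 0.05. None of the 17 probes was called in limma, against 1.51% of all tested probes (1.14% lower and 0.367% higher in R6/2). At an unadjusted p under 0.05, 2 of 17 probes passed, both lower in R6/2, against 17.0% of all tested probes (9.20% lower and 7.82% higher). Counted over both directions, the share is therefore no higher than the background. Counted over lower probes alone, 2 of 17 is a little above the 9.20%. All 4 R6/2 arrays lay below all 4 WT arrays for 3 of 17 probes and above them for 0, against 6.19% of tested probes for each direction and 12.4% for both together. Those 3 probes were the 2 of Ppargc1a and the 1 of Ppargc1b. Over the 17 probes the median difference, R6/2 minus WT, was -0.042, and over all tested probes it was 0.0096. Of the 17 differences 11 were negative and 6 positive.

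**Figure D1:**
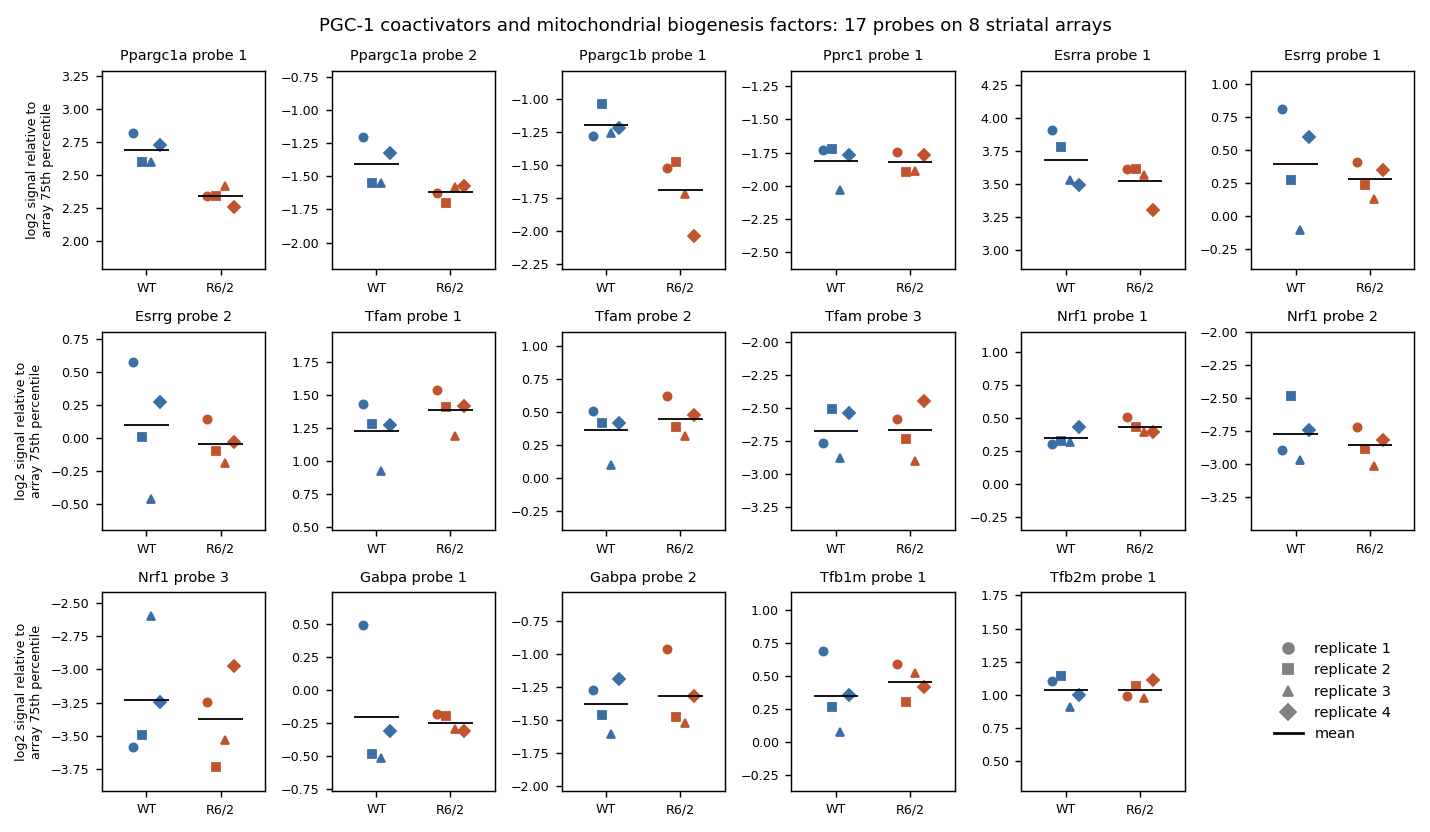
Log2 signal relative to the array's 75th percentile (vertical axis, the same span in every panel) for each of the 17 probes in WT (blue) and R6/2 (orange) striatum. Points are single arrays with a symbol per replicate number, and the bar is the mean of 4. The genotypes are apart for both Ppargc1a probes and for Ppargc1b and overlap in the other 14 panels.

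The facts of the arrays as a whole bear on all of these values. All 8 arrays lay on 1 slide that was scanned once, with the 4 WT arrays in the first row and the 4 R6/2 arrays in the second, so that slide row and genotype cannot be told apart. The replicate number was also the column on the slide. Each array had 61.5% to 67.7% of its probes well above background. The 75th percentile of the processed signal ran from 434 to 486. Over the whole array 529 probes were called, 24.4% of them higher in R6/2 (36.5% with quantile normalization), and 283 with the replicate number as a block. The tissue label was checked with 15 markers of striatal projection neurons, all of which passed the filter. Of these, 9 were called lower in R6/2 and 0 higher, against 1.49% and 0.468% of all tested genes. These calls compare the genotypes and do not themselves check the tissue label.

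Ppargc1a is read by 2 probes 2002 bases apart on the minus strand of chromosome 5 in mouse build mm9. The first lies at chr5:51848928-51848987 and the second at chr5:51846926-51846985. No annotation of that build was used, so their exons are not given. The first 30 bases of each are shown, because the probe sequence is what defines which stretch of the transcript was measured.

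Ppargc1a probe 1: ccccttcaaatggcagcatttccatgaaga
Ppargc1a probe 2: aggccaatgcagctaattttgacagctgca

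With probe 1, the brighter of the pair, Ppargc1a stood at 2.82, 2.60, 2.60 and 2.73 on the WT arrays and at 2.35, 2.34, 2.42 and 2.26 on the R6/2 arrays. The highest R6/2 array was thus below the lowest WT array, and the R6/2 arrays lay closer together than the WT arrays. The mean was 2.69 ± 0.11 in WT and 2.34 ± 0.064 in R6/2 (SD, n = 4 per genotype). The log2 difference was -0.35 ± 0.077 (SE; 95% interval -0.52 to -0.17), or 1.27-fold more signal in WT. Its limma p of 0.0019 placed it at rank 939 of the 35121 tested probes, and its adjusted p was 0.0719, so it missed the threshold. Normexp background correction (adjusted p = 0.0267) and array weights (adjusted p = 0.0421) took it past the threshold, with differences of -0.36 and -0.35.

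With probe 2, Ppargc1a stood at -1.20, -1.55, -1.55 and -1.33 in WT and at -1.62, -1.70, -1.58 and -1.57 in R6/2. The R6/2 arrays were again all below the WT arrays, although the WT arrays 2 and 3 came close to them. The log2 difference was -0.21 ± 0.096 (SE, n = 4 per genotype; adjusted p = 0.311), smaller than that of probe 1 by 0.13. The average of both probes differed by -0.28 (adjusted p = 0.148). In the authors' deposited table Ppargc1a was down 1.26-fold by probe 1 (adjusted p = 0.114) and down 1.15-fold by probe 2 (adjusted p = 0.478).

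Ppargc1b, the close relative PGC-1β, which also drives mitochondrial genes through the estrogen-related receptors, had the largest difference of the 17 probes. Its probe, at 61458222 to 61458281 on the minus strand of chromosome 18 (mm9), gave -1.28, -1.04, -1.26 and -1.22 on the WT arrays. On the R6/2 arrays it gave -1.52, -1.47, -1.72 and -2.04, all below the WT arrays, with R6/2 4 the lowest. The log2 difference was -0.49 ± 0.13 (SE, n = 4 per genotype; 95% interval -0.79 to -0.19), or 1.41-fold more signal in WT. It ranked 1758 by p among the tested probes and was not called (adjusted p = 0.113 in limma). Without R6/2 4 the difference was -0.38 (adjusted p = 0.159). The authors' deposited table gives Ppargc1b as down 1.39-fold with an adjusted p of 0.233.

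Pprc1, the third coactivator of the family, which responds to growth signals, showed no such separation. Its probe (chr19:46147311-46147370, plus strand, mm9) gave -1.73, -1.73, -2.04 and -1.77 in WT and -1.75, -1.90, -1.89 and -1.77 in R6/2. WT 3 was the lowest of all 8 arrays and the genotypes overlapped. The log2 difference was -0.0083 ± 0.090 (SE, n = 4 per genotype; 95% interval -0.22 to 0.20; adjusted p = 0.974).

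**Figure D2:**
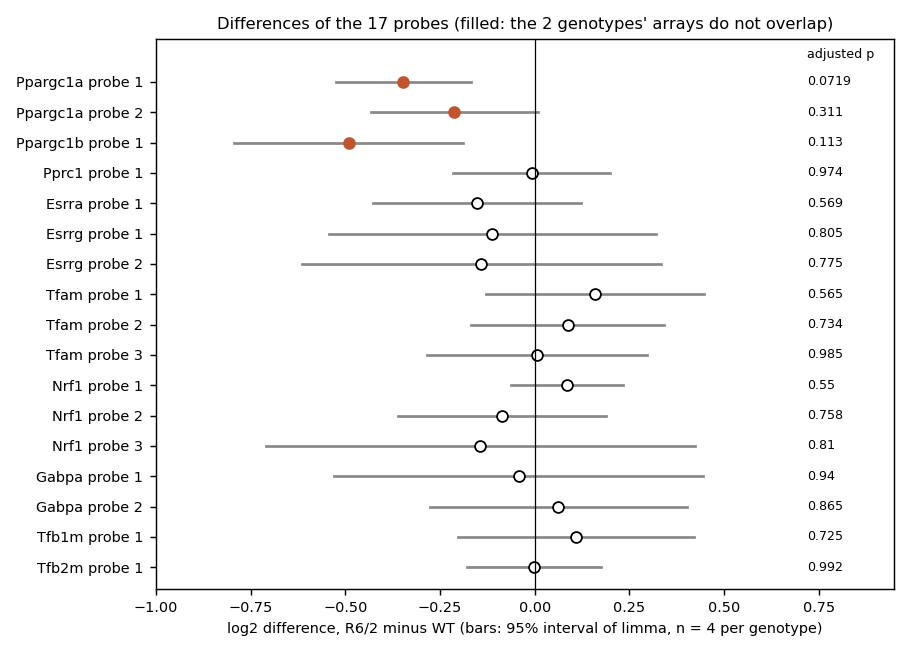
Log2 difference R6/2 minus WT (horizontal axis) of the 17 probes, with the 95% interval from limma (n = 4 per genotype) and the adjusted p over all tested probes at the right. Filled points mark the 3 probes whose genotypes do not overlap. In this fit without a block, the intervals of Ppargc1a probe 1 and of Ppargc1b lie below 0, and the other 15 include it.

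The estrogen-related receptors are the partners through which PGC-1 proteins reach many respiratory chain genes. Esrra (chr19:6985503-6985562, minus strand, mm9) stood at 3.91, 3.78, 3.53 and 3.49 in WT and at 3.62, 3.61, 3.57 and 3.31 in R6/2. The R6/2 arrays lay within or below the WT range, with R6/2 4 apart from the other three. The log2 difference of Esrra was -0.15 ± 0.12 (SE, n = 4 per genotype; adjusted p = 0.569). Its direction was the same in all 18 alternatives, with differences from -0.21 to -0.076.

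Esrrg, the receptor of the family found most in neurons and muscle, was read by 2 probes on chromosome 1, 192 bases apart (the brighter at chr1:190038384-190038443, plus strand, mm9). By its brighter probe Esrrg gave 0.81, 0.27, -0.11 and 0.60 in WT and 0.41, 0.24, 0.13 and 0.35 in R6/2. The WT arrays spread widely on either side of the R6/2 arrays. The SD was 0.40 in WT and 0.12 in R6/2, and the log2 difference was -0.11 ± 0.19 (SE, n = 4 per genotype; adjusted p = 0.805). The second Esrrg probe gave a difference of -0.14 ± 0.21 (adjusted p = 0.775), and its 95% interval ran from -0.61 to 0.33. Without WT 1 the difference turned positive for both probes, at 0.027 and 0.019.

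NRF1 and GABP are the nuclear factors that pass the PGC-1 signal on. Nrf1, the gene of nuclear respiratory factor 1, was read by 3 probes on chromosome 6. The brightest (chr6:30103035-30103094, plus strand, mm9) gave 0.30, 0.33, 0.32 and 0.43 in WT and 0.50, 0.43, 0.39 and 0.39 in R6/2. Only WT 4 reached into the R6/2 range. The log2 difference of that Nrf1 probe was 0.086 ± 0.065 (SE, n = 4 per genotype; adjusted p = 0.550), and it was positive in all 18 alternatives. The dimmer Nrf1 probes, 1342 and 36894 bases away, had differences of -0.087 ± 0.12 (adjusted p = 0.758) and -0.14 ± 0.25 (adjusted p = 0.810). The 3 probes of Nrf1 thus had different signs, and the 95% interval of each included 0.

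Gabpa encodes the DNA-binding subunit of GABP. Its brighter probe (chr16:84863822-84863881, plus strand, mm9) gave 0.49, -0.49, -0.51 and -0.31 in WT and -0.18, -0.20, -0.30 and -0.31 in R6/2. WT 1 was far above the other 7 arrays. The log2 difference of this Gabpa probe was -0.042 ± 0.21 (SE, n = 4 per genotype; adjusted p = 0.940), and 0.19 without WT 1. The second Gabpa probe, 3131 bases upstream, gave 0.063 ± 0.15 (adjusted p = 0.865), with WT 1 inside the range of the others.

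Tfam, the protein that packs mitochondrial DNA and starts its transcription, is a standard readout of PGC-1 activity. It was read by 3 probes on the minus strand of chromosome 10. By the brightest (chr10:70691103-70691162, mm9) Tfam gave 1.43, 1.28, 0.92 and 1.27 in WT and 1.54, 1.41, 1.19 and 1.41 in R6/2. Replicate 3 was the lowest of its genotype in both groups, and each R6/2 array was above the WT array of the same number. The log2 difference was 0.16 ± 0.12 (SE, n = 4 per genotype; 95% interval -0.13 to 0.45; adjusted p = 0.565, and 0.208 with the replicate number as a block). With that block the SE was 0.059 and the unadjusted p of limma 0.0432. The other Tfam probes had differences of 0.088 ± 0.11 (adjusted p = 0.734) and 0.0066 ± 0.13 (adjusted p = 0.985). Leaving out WT 3 took the difference of the brightest probe to 0.058 and that of the probe at 0.088 to 1.3e-04, so both lean on that array.

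Tfb1m, a methyltransferase of the mitochondrial ribosome's RNA, gave 0.69, 0.26, 0.073 and 0.35 in WT and 0.59, 0.30, 0.52 and 0.41 in R6/2 (chr17:3519390-3519449, minus strand, mm9). The R6/2 arrays lay inside the WT range. Its log2 difference was 0.11 ± 0.14 (SE, n = 4 per genotype; adjusted p = 0.725). Tfb2m, the factor that opens mitochondrial promoters for the mitochondrial RNA polymerase, gave 1.10, 1.14, 0.91 and 1.00 in WT and 0.99, 1.06, 0.98 and 1.11 in R6/2 (chr1:181458247-181458306, minus strand, mm9). Here too the ranges overlapped almost fully. The log2 difference of Tfb2m was -0.0022 ± 0.077 (SE, n = 4 per genotype; 95% interval -0.18 to 0.17; adjusted p = 0.992). Outside the coactivators no member's difference exceeded 0.16 in size.

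A ratio within an array does not depend on how arrays are scaled, and sets a coactivator against its partner factors directly. The log2 ratio of Ppargc1a to Tfam, on their brightest probes, ran from 1.32 to 1.68 in WT and from 0.81 to 1.23 in R6/2. The ratio of Ppargc1a to Nrf1 ran from 2.27 to 2.52 in WT and from 1.84 to 2.02 in R6/2. For Ppargc1a the R6/2 arrays were all below the WT arrays against 5 of the 8 other factors, and for Ppargc1b against 4 of 8. The exceptions were Esrra, Esrrg and Gabpa for both, and Tfb1m for Ppargc1b. Against all tested genes that are no members, the R6/2 arrays were below the WT arrays for 48.3% of ratios with Ppargc1a and 54.8% with Ppargc1b. The separation from these factors was therefore like that from other genes. These pairs were chosen with the values known, all ratios of a coactivator share its own values, and no test was made.

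**Figure D3:**
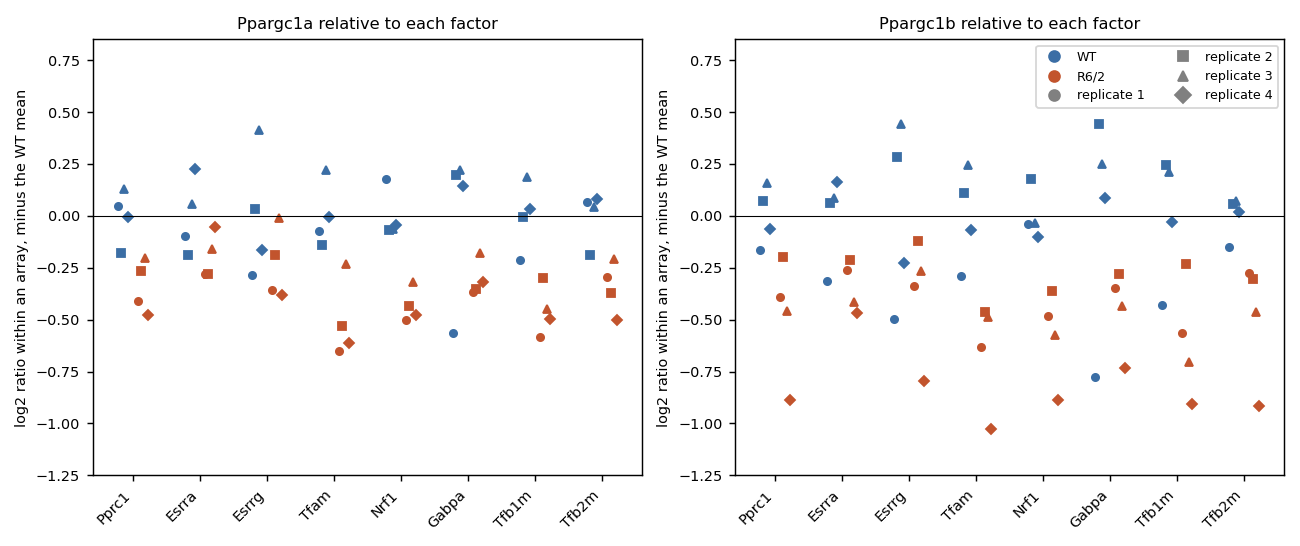
Log2 ratio within each array of Ppargc1a (left) and Ppargc1b (right) to 8 factors named on the horizontal axis, with the WT mean of each ratio set to 0 (vertical axis, log2). Points are arrays, WT in blue and R6/2 in orange. The R6/2 points lie below all WT points for 5 factors at the left and 4 at the right.

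The promoter windows of the members were searched for motifs of the factors themselves. CREB binds TGACGTCA and its short core TGACG, NRF1 binds a site with the core CGCNTGCG, GABP binds CCGGAAG, and estrogen-related receptors bind AAGGTCA. These letters were searched on both strands in the 250 bases before each start of the RefSeq promoter table (GRCm38.p6). The table was used for 9 members, all but Ppargc1b, with 13 starts. Of 32851 such windows 1.55% held TGACGTCA, 17.8% TGACG (which is part of it), 6.76% CGCNTGCG, 6.91% CCGGAAG and 4.08% AAGGTCA. A match to any of the motifs was found in 6 of the 13 windows. The share of all windows with any match was not computed, so this count has no background beside it. The windows of Ppargc1a and Tfam are shown because Ppargc1a had the smallest p of all members and Tfam is the classical target of GABP, with matches in capitals.

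Ppargc1a, chr5:51567726-51567975, minus strand: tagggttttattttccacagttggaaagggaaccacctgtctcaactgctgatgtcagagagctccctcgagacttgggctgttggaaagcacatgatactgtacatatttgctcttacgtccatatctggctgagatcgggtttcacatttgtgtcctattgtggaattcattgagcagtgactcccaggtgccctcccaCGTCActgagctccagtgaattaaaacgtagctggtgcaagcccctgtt
Tfam, chr10:71238045-71238294, minus strand: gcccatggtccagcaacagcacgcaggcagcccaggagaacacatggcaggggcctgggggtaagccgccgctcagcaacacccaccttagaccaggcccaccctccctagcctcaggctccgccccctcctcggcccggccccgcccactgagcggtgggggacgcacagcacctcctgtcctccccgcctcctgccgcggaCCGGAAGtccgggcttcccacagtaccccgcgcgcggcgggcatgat

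The Ppargc1a window held the core of the CREB motif on the opposite strand, starting 49 bases before the listed start. Only 1 start of Ppargc1a was searched, so motifs before any other start of the gene would not have been seen. The Tfam window held the GABP motif starting 47 bases before its start. Gabpa's own window held it too, on the opposite strand at 93 bases, and that of Tfb1m held the CREB core at 2 places. The NRF1 core was in the windows of Esrra (2 places), Nrf1 and Gabpa. A longer form with G before and C after it, searched first, was in 3.74% of all windows and in none of these. A match of letters is a description and not a binding site, and the arrays measured no binding.

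The genes around the coactivators were examined as 8 lists with 165 tested genes, each gene by its brightest tested probe. None of the 165 was called in limma, against 1.95% of all 16886 tested genes (1.49% lower and 0.468% higher). The methods' t-test in the authors' deposited table gave 1 of them an adjusted p under 0.05, Cox8a. At an unadjusted p under 0.05 there were 14 lower and 10 higher, together 14.5% of the 165, against 19.0% of all tested genes. The median over all tested genes was 0.021, and 9182 of the 16886 had a positive difference.

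Downstream are genes that PGC-1 proteins are known to drive. Of 31 nuclear-encoded respiratory chain genes, 23 had a positive difference and the median was 0.030. WT 3 was the lowest WT array for most of the 31, as for Cox5a at 6.05 against 6.53 to 6.64 on the other WT arrays. The signs therefore lean on 1 array, and they were not counted again without it. The summed signal of the list ran from 1791 to 2197 in WT and from 1980 to 2090 in R6/2. The smallest p was that of Cox8a, a subunit of cytochrome oxidase, at -0.18 ± 0.057 (SE, n = 4 per genotype; adjusted p = 0.166 in limma). It stood at 7.91, 7.94, 7.92 and 7.97 in WT and at 7.77, 7.74, 7.77 and 7.73 in R6/2, with no overlap. Next was Ndufs1, a core subunit of complex I, at 0.14 (adjusted p = 0.523). Of 25 genes of fatty acid oxidation, the citric acid cycle and fuel choice, 20 were positive with a median of 0.063. Cpt1c, a neuronal carnitine palmitoyltransferase, had 0.27 ± 0.067 (adjusted p = 0.0957) and Acadm, an acyl-CoA dehydrogenase, 0.21 ± 0.066 (adjusted p = 0.157), both with all R6/2 arrays above all WT arrays.

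Mitochondrial DNA maintenance comprised 22 genes, of which 17 were positive, with a median of 0.072. The smallest p-values were those of Exog, a mitochondrial nuclease, at 0.34 (adjusted p = 0.260 in limma) and Fastkd2, a mitochondrial RNA-binding protein, at 0.34 (adjusted p = 0.291). Fastkd2 was dim, with values from -4.97 to -4.19, so its difference is one of low signals. Of 19 genes of fusion, fission and protein import 13 were positive, with a median of 0.046. WT 3 was the lowest WT array for most genes of this list and of the mitochondrial DNA list, so these counts lean on it too. Mief2, a fission factor, had 0.39 (adjusted p = 0.216) and Tomm70a, an import receptor, -0.28 (adjusted p = 0.256). Of 16 antioxidant and uncoupling genes 8 were positive and 8 negative, with a median of 0.0011. Ucp2, an uncoupling carrier that PGC-1α can induce, had -0.67 ± 0.24 (adjusted p = 0.212). Its WT 3 array, at -0.12, was well above the other 7, which ran from -1.74 to -0.96. Cat, the gene of catalase, had -0.34 (adjusted p = 0.338).

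Upstream, 24 signalling proteins and factors that act on Ppargc1a were tested, with a median of 0.015 and 11 negative differences. Ppp3ca, the catalytic subunit of the phosphatase calcineurin, had -0.38 ± 0.094 (SE, n = 4 per genotype; adjusted p = 0.0957 in limma). Sirt1, the deacetylase that activates PGC-1α, had 0.26 ± 0.065 (adjusted p = 0.0967), with R6/2 arrays from 0.81 to 0.96 and WT arrays from 0.58 to 0.68. Chosen for their link to huntingtin with the values known, Taf4 had -0.26 ± 0.098 (adjusted p = 0.222) and Creb1 -0.084 ± 0.11 (adjusted p = 0.746). Among 24 partner factors and corepressors 19 were negative, with a median of -0.12. Foxo1, a transcription factor that PGC-1α coactivates, had -0.51 ± 0.13 (adjusted p = 0.0894), and its relative Foxo3 had 0.60 ± 0.14 (adjusted p = 0.0816), both without overlap of the genotypes.

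**Figure D4:**
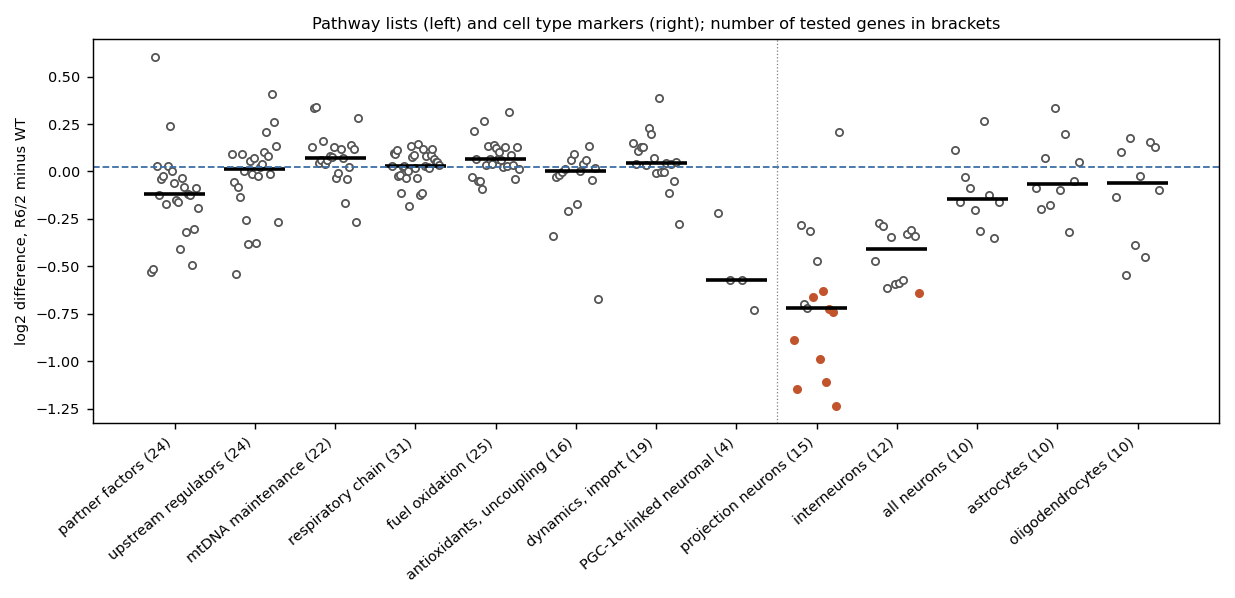
Log2 difference R6/2 minus WT (vertical axis) for each tested gene of the 8 lists around PGC-1 (left of the dotted line) and of 5 cell type marker lists (right). Black bars are list medians, the dashed line is the median of all tested genes, and filled points are genes called in limma. No gene left of the line was called, and the lowest medians were those of the projection neuron and PGC-1α-linked neuronal lists.

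Neuronal genes reported to depend on PGC-1α were the list with the lowest median around the coactivators. All 4 had a negative difference, with a median of -0.57, and none was called in limma. At an unadjusted p under 0.05 there were 2, against 19.0% of all tested genes. Nefh, Pvalb and Cplx1 each had their highest value on WT 1, at 4.19, 4.43 and 5.55. Syt2, a synaptotagmin of fast-releasing synapses, stood at -2.15, -2.34, -2.75 and -2.26 in WT and at -2.81, -3.45, -3.11 and -3.05 in R6/2. Its log2 difference was -0.73 ± 0.17 (SE, n = 4 per genotype; adjusted p = 0.0780). It was -0.85 without WT 3 (adjusted p = 0.0496) and, with normexp, -0.39 (adjusted p = 0.0414). Pvalb, the calcium buffer parvalbumin, had -0.57 ± 0.24 (adjusted p = 0.271) with overlapping genotypes, and the values were -0.57 for Nefh and -0.22 for Cplx1.

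Markers of several cell types were also lower on the R6/2 arrays. All 12 genes of the interneuron list, Pvalb among them, had negative differences with a median of -0.41, and 1, Th, was called lower. Their summed signal ran from 114.5 to 133.2 times the 75th percentile in WT and from 90.1 to 94.4 in R6/2. That sum leans on Lhx6, the brightest of the list, at 5.14 to 5.52 in WT and 4.72 to 5.20 in R6/2. Whether each gene of the list, such as Gad1, is particular to interneurons in this tissue was not tested. The summed signal of the 15 projection neuron markers ran from 854 to 976 in WT and from 449 to 610 in R6/2, and 14 of the 15 were negative. The 10 markers of all neurons ran from 428 to 458 in WT and from 371 to 408 in R6/2 with 0 called. Those of 10 oligodendrocyte markers (720 to 905 against 616 to 791) and 10 endothelial markers (35.1 to 84.1 against 36.2 to 43.0) overlapped. The 10 astrocyte markers (330 to 365 against 307 to 331) overlapped by little, and the 10 microglial markers (143.6 to 167.8 against 127.5 to 143.1) and the 10 cortical neuron markers (48.7 to 55.2 against 31.4 to 39.4) did not overlap. Of these last lists 1 gene each was without overlap. These were Itgam in the microglial list (-0.28, adjusted p = 0.146 in limma) and Nrgn in the cortical list, called lower at -0.61 (adjusted p = 0.0219). Each also had the highest signal of its list, so each sum leans on that gene. Nrgn stood at 5.01 to 5.10 in WT, and which cells of the tissue its signal came from was not tested. The next brightest cortical marker, Tbr1, stood at 2.39 to 3.40 in WT and at 1.96 to 3.14 in R6/2. Sums without Itgam or Nrgn were not taken, so whether the other markers were separated as a set was not tested. The median difference was -0.088 for the microglial list and -0.46 for the cortical list. No marker of these lists failed the detection filter. The part of cell composition in the values of Ppargc1a and Ppargc1b was not tested, and in tissue RNA fewer cells of a type and less RNA per cell cannot be told apart.

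Among 16876 tested genes that are no members, those whose values over the 8 arrays were most like Ppargc1a's brighter probe were Zfp112, Olfr392, Ppp1r16b, Myo3b and Prr5. Their Pearson correlations with it ran from 0.973 to 0.981 over 8 arrays, and Spearman's rho from 0.929 to 0.976. This is a description that contains the difference between the genotypes, and all arrays share 1 slide.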

How the data were processed

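Total RNA of striatum was measured on 8 one-colour (Cy3) arrays, 4 per genotype. Per the file headers, Agilent Feature Extraction 10.7.3.1 made the deposited intensity values (processed signal, mean signal, local background), with spatial detrending and surrogate values near background. The authors also deposited a table with log2 values, p-values and fold ratios. Set against the scanner files, its log2 values are the processed signal minus a constant per array, below which 75.0% of values lie, with column medians from -3.49 to -3.27. No gene was centred, and the direction, R6/2 over WT, held for 100% of its rows. Its p-values come from an unpaired t-test with Benjamini-Hochberg correction, per the file headers.

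Here log2 processed signals were scaled to each array's 75th percentile, flagged spots were left out, and probes well above background on at least 4 of 8 arrays were tested with limma 3.58.1 in R 4.3.3. The procedure was tested on simulated data. Errors are limma's SE unless SD is written. Genes were named by RefSeq accession, gene number or array symbol (26851, 4983 and 373 probes; 23474 had none). Members and lists were chosen with earlier results of these data known. Of each list, up to 4 called genes were named, or the 2 of smallest p. Same-numbered arrays shared a slide column, and their deviations from the genotype means correlated at 0.15 to 0.35, so the numbers pair the arrays. Errors and intervals are from the fit without this pairing unless a block is named. Alternatives changed background correction, scaling, filter, outlier spots, weights, block, probe averaging, authors' values and single arrays. Array number limits the precision.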

Additional observations from a re-analysis of the deposited data

Results flagged for a closer look

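Of 34 groups of 4 arrays (17 probes in 2 genotypes), 2 held an array far from the other 3, where chance gives about 1 in 20. For Pprc1 in WT, WT 3 lay at -2.04 while the others ran from -1.77 to -1.73. For Esrra in R6/2, R6/2 4 lay at 3.31 while the others ran from 3.57 to 3.62.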

How the results depend on the processing

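The number of the 17 probes called in limma was 0, and it was 1 with normexp background correction and 1 with array weights, in both cases Ppargc1a (differences of -0.36 and -0.35, adjusted p = 0.0267 and 0.0421). It was 0 in the other alternatives, among them the 8 fits that each left out an array (0 to 0) and the authors' t-test. Ppargc1a and Ppargc1b kept a negative difference in all 19 alternatives each, from -0.38 to -0.28 and from -0.56 to -0.36. With the replicate number as a block (pairing by slide column) the adjusted p was 0.103 for Ppargc1a and 0.0996 for Ppargc1b, and no call changed among the 17 probes or the 8 lists around PGC-1. A block for slide or scan could not be fitted, since all arrays share both. Of 308 values over the 17 probes, 276 kept direction and side of the threshold and 30 turned sign.

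Genes called in the 8 lists numbered 0, and 4 with normexp (Cpt1c, Foxo1, Syt2, Sirt1), 3 with array weights (Foxo1, Syt2, Ppp3ca), 1 with probes averaged (Camk4), 1 by the authors' t-test (Cox8a) and 0 to 1 with an array left out. Other probes, none of them called, turned sign. Pprc1 gave 0.043 with quantile normalization, 0.017 with median centring and 0.0040 with the authors' values in limma or in their t-test. Tfb2m gave 0.0041, 0.023 and 0.010 there, and 0.014 with normexp. Tfam probe 3 gave -0.066 with array weights. With an array left out, differences ran from -0.081 to 0.022 (Pprc1), -0.046 to 0.032 (Tfb2m), -0.067 to 0.084 (Tfam probe 3), -0.28 to 0.027 and -0.33 to 0.019 (Esrrg), -0.14 to 0.19 and -0.056 to 0.13 (Gabpa), and -0.15 to 0.0091 and -0.28 to 0.069 (Nrf1 probes 2 and 3). The count of all called probes was 529, and it was 100 to 505 with an array left out (505 without WT 3, at most 180 without any other), 110 without a filter, 283 with the block, 981 with normexp and 982 with array weights. The cause was not tested. All 17 probes were well above background on all 8 arrays, so no value is only a bound.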

Other observations

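Genes encoded in mitochondrial DNA, whose transcription Tfam and Tfb2m serve, were read by 7 probes, a list made after the files were seen. None was called in limma, and 0 had an unadjusted p under 0.05. For Cytb, of complex III, the R6/2 arrays differed from WT by -0.038 ± 0.068 on the log2 scale (SE, n = 4 each; adjusted p = 0.819). Nd1, Nd2, Nd4 and Nd5 of complex I ran from -0.072 to 0.096, and Nd6, the complex I gene on the other strand, had -0.15 ± 0.12 (adjusted p = 0.582). Cox1, a core subunit of cytochrome oxidase, had -0.016 ± 0.26 (adjusted p = 0.983), and its WT 1 array, at 7.74, was the lowest of 8.

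Esrrg and Pvalb ranked the WT arrays in the same order, WT 1, WT 4, WT 2 and WT 3 from high to low. Esrrg gave 0.81, 0.60, 0.27 and -0.11 there, and Pvalb gave 4.43, 3.96, 3.46 and 3.33. Esrrg ranked the R6/2 arrays by the same replicate numbers, at 0.41, 0.35, 0.24 and 0.13. Pvalb did not, with R6/2 3 (3.14) above R6/2 2 (3.02) and R6/2 1 and R6/2 4 at 3.46 and 3.28. The order of the WT arrays was not particular to Esrrg and Pvalb. Gabpa's brighter probe, Tfb1m (0.69, 0.35, 0.26 and 0.073), Nefh and Cox5a ranked them in the same way. The likeness of Esrrg and Pvalb was noticed after the values were seen.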
